A study of Bos taurus with 10 samples.

Results

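Genes of the actin filament system were described in 2 bovine fat depots: actins, myosins and tropomyosins, and the proteins that nucleate, sever, cap, bundle and bind filaments. The members were taken by gene symbol alone, as every listed gene whose symbol begins with the name of one of these families, and 67 of the 12674 listed genes matched. The samples were fat lying between muscle fibres (intramuscular fat, the marbling of beef) and fat under the skin (subcutaneous fat) of 5 adult female Angus-cross cattle (heifers), with 5 RNA-seq libraries per depot. The labels name no treatment, and the aim of the series was to find what sets the later and slower growth of marbling fat apart. Libraries are called replicates 1 to 5 of a depot, and libraries that share a number were treated as 1 animal. The smooth and striated muscle actins, the muscle myosin heavy chains of adult tissue, TPM1, TPM2, TPM3, ACTN1 and the leiomodins were not analysed here.

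Actin exists as single molecules and as filaments. Profilins and thymosins hold the single molecules, the Arp2/3 complex starts branches, capping protein closes the fast-growing end, proteins of the ADF/cofilin family (cofilin and destrin) cut filaments and take them apart, and alpha-actinins, fascins and espin tie filaments into bundles. Non-muscle myosins pull on filaments and unconventional myosins carry or tether membranes along them. In fat cells, the dense filament meshwork of the precursor is remodelled as the cell rounds up and fills with lipid, and actin under the plasma membrane takes part in moving the insulin-responsive glucose transporter.

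The listed genes summed to between 9392739 and 14836808 counts in intramuscular and between 13776094 and 17685678 in subcutaneous libraries. The mature adipocyte list (17 of 20 genes with values) summed to between 8183 and 28673 CPM (the depth-scaled read count, on edgeR's TMM-scaled library sizes) in intramuscular and between 27078 and 43191 CPM in subcutaneous libraries. The lowest sum belongs to intramuscular replicate 1 alone, and the intramuscular libraries other than it began at 18280 CPM. Subcutaneous replicates 3 and 5 stood apart by gene length. Genes with a listed length under 1000 bases lay at a median of 0.38 and 0.59 above, and genes of 5000 bases and over 0.23 and 0.47 below, their mean over the 10 libraries on a log2 scale in these 2 libraries (the subcutaneous libraries other than these lay between -0.11 and 0.10). Intramuscular replicates 1 and 3 had the most striated muscle transcripts. The striated muscle list (15 of 74 genes with values, of which 4 had no subcutaneous count) summed to 4928 and 2611 CPM in those 2 libraries, to between 1635 and 2070 CPM in intramuscular replicates 2, 4 and 5, and to between 326 and 1303 CPM in subcutaneous fat, where PDK4, which fat also expresses, made up most of it. In whole tissue, fewer cells of a type and less RNA per cell cannot be told apart.

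Most genes of the actin system were not called different between depots, and a handful were. The lack of a call does not show equal levels. Among uncalled members, 12 were lower and 5 higher in intramuscular fat in 5 of 5 animals. The same count was not made over all genes, so no excess among the members can be read from it. Of the 65 members tested, 5 were higher in intramuscular fat (DSTN, PDLIM1, MYO1D, MYO7B and CAPZA2) and 5 were lower (ESPN, FSCN1, TAGLN2 and ARPC4 among them) at an adjusted p under 0.05 (edgeR quasi-likelihood fit, Benjamini-Hochberg). That is 15.4% of the members, against 12.2% of all 12521 genes tested (6.75% higher and 5.49% lower), so in this fit the members were called about as often as genes in general. The median log2 fold change (intramuscular over subcutaneous) was -0.06 over the members and -0.04 over all genes. In 12 of the 65 members tested the depots shared no range of values, and so it was for 1614 of all 12521 genes tested (12.9%). With the animal as a block, 13 members were called (20% of those tested, against 15.0% of all genes). Without intramuscular replicates 1 and 3, 4 members were called, DSTN, ESPN and FSCN1 among them (6.06%, against 2.96% of all genes). Without subcutaneous replicates 3 and 5, 9 members were called (13.6%, against 6.62%). The authors' deposited table lists 14 of the 67 members with an adjusted p under 0.05 (and 20.0% of all its genes), and all 10 members called here are among them.

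**Figure D1:**
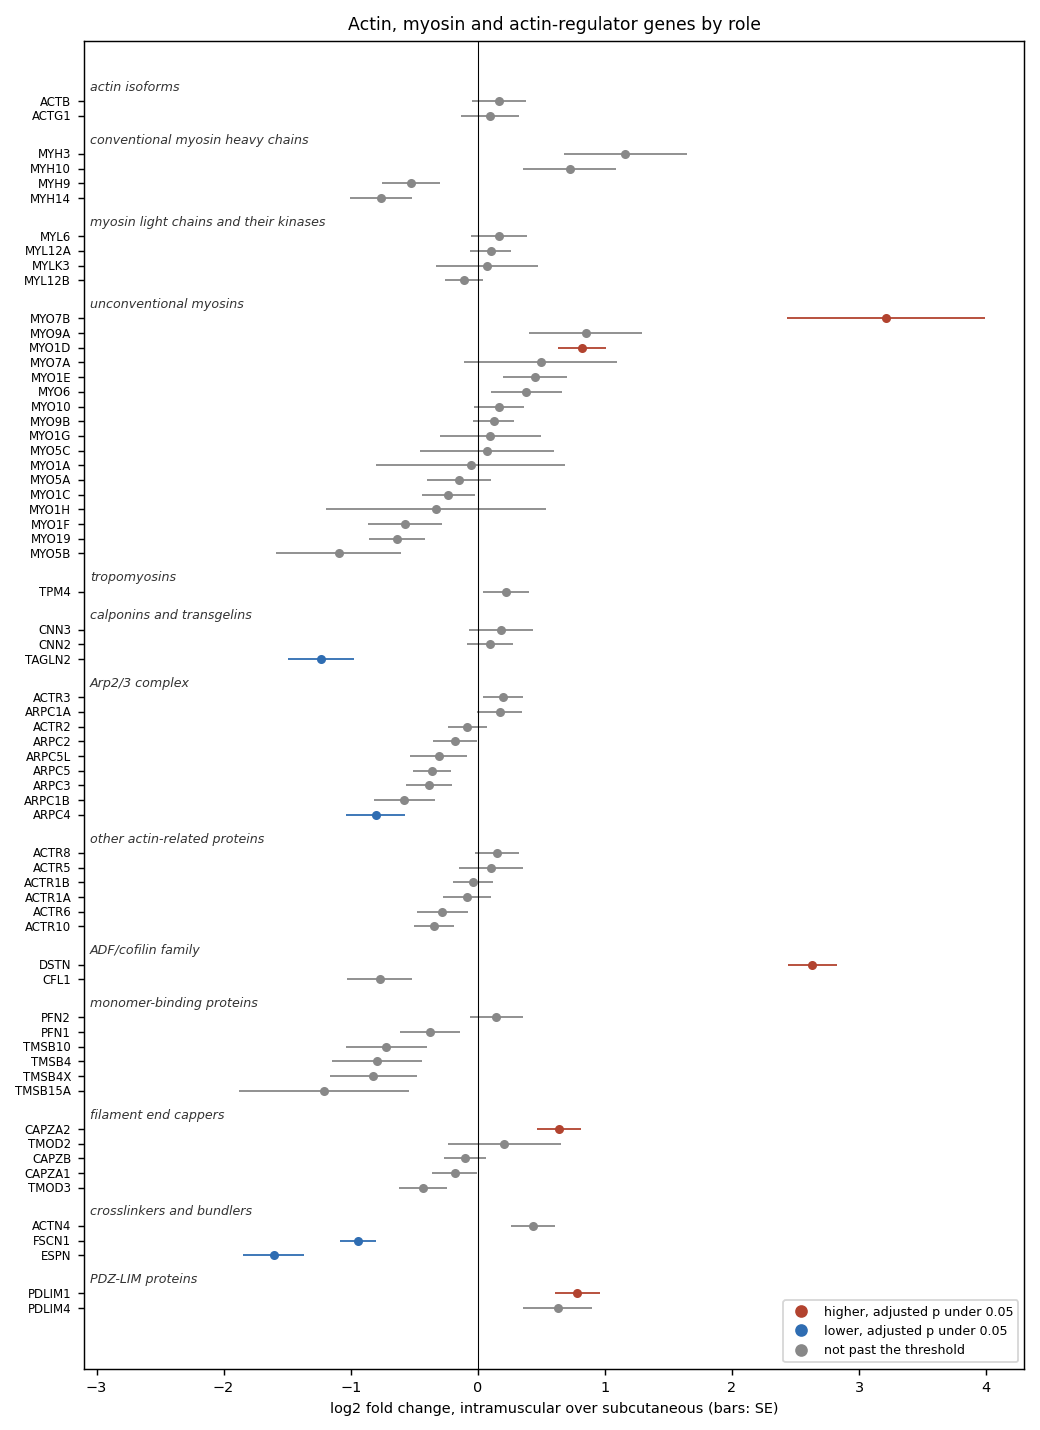
Log2 fold change (intramuscular over subcutaneous fat) of the tested members, 1 of which is not drawn, grouped by role, with bars for the standard error and colour for the edgeR call. Most points lie within 0.5 of zero (40 of the 65 tested), as do 7752 of all 12521 genes tested. DSTN at 2.63 and MYO7B at 3.21 stand to the right and ESPN at -1.61 to the left.

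The actin filament's main building blocks did not pass the test. The cytoplasmic actins ACTB and ACTG1 are nearly identical proteins that every cell makes, so reads may have been shared between them. ACTB measured 3743, 4430, 3650, 4609 and 5014 CPM in intramuscular replicates 1 to 5, against 3460, 2877, 3726, 3821 and 5266 CPM in subcutaneous replicates 1 to 5. The depots overlapped, and 3 of 5 animals had the higher value in intramuscular fat. ACTB and ACTG1 had log2 fold changes of 0.16 ± 0.21 and 0.10 ± 0.23 (± SE) with edgeR adjusted p of 0.636 and 0.807. ACTG1 held 35.4 ± 3.5% of the summed ACTB and ACTG1 level in intramuscular and 37.0 ± 2.6% in subcutaneous fat (CPM per kilobase of listed length, SD, n = 5). TPM4, the tropomyosin with values here, a rod that lies along the filament, measured 364 ± 57.8 against 312 ± 62.8 CPM (SD, n = 5, edgeR adjusted p = 0.436).

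Ranked by level per length over both depots, the thymosins TMSB4X (4279 CPM per kilobase) and TMSB10 (3307) came first, followed by ACTB (2212), the essential myosin light chain MYL6 (2015) and ACTG1 (1261). These 5 held the same order in both depots. Below them CFL1, TAGLN2, DSTN and MYL12A lay between 515 and 671 CPM per kilobase, and here the order differed between depots: DSTN was the 14th most abundant member in subcutaneous fat and the 6th in intramuscular fat.

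The ADF/cofilin family carried the smallest p of any member. DSTN encodes destrin, which binds and disassembles actin filaments (ENSBTAG00000015434, chromosome 13, 37954688 to 37980471, build not given in the sources used here). It measured 1312, 838, 966, 973 and 750 CPM in intramuscular replicates 1 to 5. In subcutaneous replicates 1 to 5 it measured 185, 164, 151, 131 and 150 CPM. The lowest intramuscular library was thus far above the highest subcutaneous one, and the ratio within an animal ran from 5.01 to 7.41. The log2 fold change was 2.63 ± 0.19 (± SE, edgeR adjusted p = 1.6e-05), and it was at most 2.71 with each library left out in turn and lowest, at 2.502, without intramuscular replicate 1. Of all genes tested, 237 had a log2 fold change of that size or above, DSTN included.

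CFL1, the non-muscle cofilin, does the same work on the filament and had a negative log2 fold change. It measured 376, 509, 409, 684 and 678 CPM in intramuscular and 600, 699, 1076, 825 and 1338 CPM in subcutaneous replicates 1 to 5, and was lower in intramuscular fat in 5 of 5 animals. The depots overlapped, and the log2 fold change of -0.77 ± 0.26 had an edgeR adjusted p of 0.0651. With the animal as a block CFL1 passed (adjusted p = 0.0378), and without subcutaneous replicates 3 and 5 its log2 fold change was -0.42 (adjusted p = 0.305). Per kilobase, DSTN held 77.9, 62.4, 70.4, 58.9 and 52.8% of the sum of DSTN and CFL1 in intramuscular replicates 1 to 5. The subcutaneous shares, in the same order of animals, were 23.7, 19.1, 12.4, 13.8 and 10.2%. DSTN was therefore the more abundant of this pair in every intramuscular library and the less abundant in every subcutaneous library. The mean share was 64.5 ± 9.8% against 15.8 ± 5.5% (SD, n = 5). The muscle cofilin CFL2 was not analysed here.

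DSTN was highest in intramuscular replicate 1, the library with the most striated muscle transcripts. Its rise was called without replicates 1 and 3 as well (log2 fold change 2.45, edgeR adjusted p = 6.54e-05). That fit does not remove muscle transcripts. The intramuscular libraries kept in it summed to 1635 to 2070 CPM on the striated muscle list, against at most 1303 CPM in subcutaneous libraries. Most, but not all, markers of smooth muscle and pericytes leaned towards intramuscular fat. In that list 15 of 21 genes had values, of which 11 leaned towards intramuscular and 4 towards subcutaneous fat. Of the 15, 8 were called higher and 1 lower, against 6.75% and 5.49% of all genes tested, and the median log2 fold change was 1.20. Summed levels were 2928 to 4721 CPM in intramuscular and 1855 to 2914 CPM in subcutaneous libraries. The sums were highest in intramuscular replicates 1 and 3 (4721 and 3904 CPM), which also had the most striated muscle transcripts. Whether this list varied apart from muscle fibre RNA was not tested. The regulator of G protein signalling RGS5, a pericyte marker, measured 614, 280, 549, 369 and 318 CPM in intramuscular and between 28.5 and 63.0 CPM in subcutaneous libraries. RGS5 is the only gene of this list given with values. It does not stand for the 4 that leaned towards subcutaneous fat, and the gene called lower is not named here. DES and SMTN, markers of contractile smooth muscle of which DES also marks striated muscle, were not analysed here. The part of muscle fibres, smooth muscle and pericytes in the DSTN difference was not tested.

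**Figure D2:**
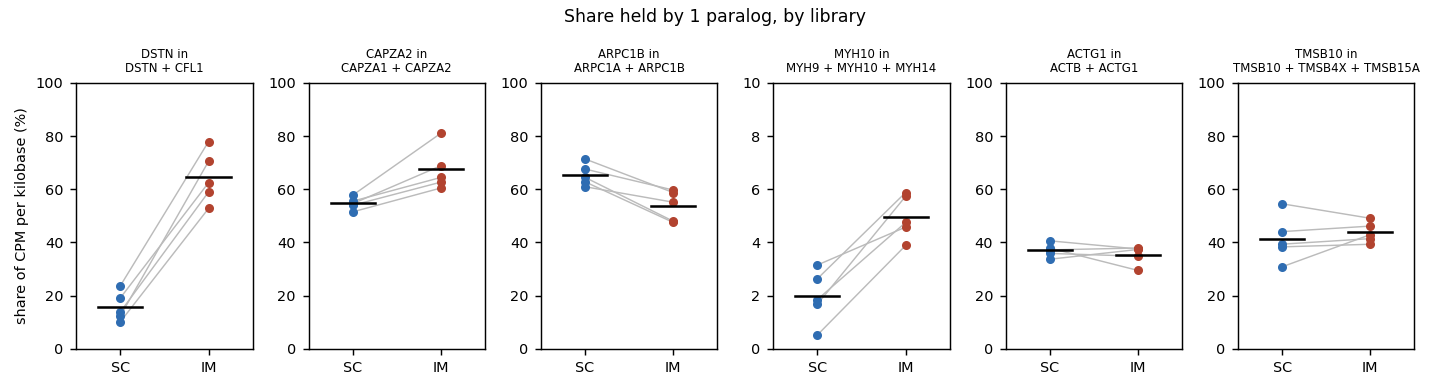
Share (%) of a family's summed CPM per kilobase held by 1 paralog in each library, subcutaneous (SC) on the left and intramuscular (IM) on the right, with grey lines joining libraries of the same number and black bars for means. The MYH10 axis ends at 10%; DSTN goes from between 10.2 and 23.7% in subcutaneous to between 52.8 and 77.9% in intramuscular fat, while the ACTG1 and TMSB10 shares overlap.

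Of the 6 proteins that hold single actin molecules (TMSB4X, TMSB10, TMSB15A, TMSB4, PFN1 and PFN2), none was called, 5 had a negative log2 fold change, and the smallest edgeR adjusted p was 0.124. TMSB4X, thymosin beta 4, the main store of single actin molecules in many cells, measured 1291, 2985, 2853, 3109 and 2812 CPM in intramuscular and 2279, 3716, 7721, 3461 and 5890 CPM in subcutaneous replicates 1 to 5. The 2 high subcutaneous values belong to replicates 3 and 5, in which short genes lay high in general, and TMSB4X has a listed length of 844 bases. Without these 2 libraries the log2 fold change moved from -0.82 to -0.27 for TMSB4X and from -0.72 to -0.15 for TMSB10. Over all tested genes under 1000 bases the median log2 fold change was -0.31. For the 7 members under 1000 bases it was -0.72, and for the 15 members of 5000 bases and over it was 0.12, where all such genes had 0.19. Those 7 include TMSB4X, TMSB10, TMSB15A, TMSB4 and PFN1 themselves, so their median is not separate from the values given here. The part of gene length in these differences was not tested. TMSB4, at 7.23 ± 2.66 against 12.5 ± 5.79 CPM (SD, n = 5), is listed apart from TMSB4X and may share reads with it. The profilins PFN1 and PFN2, which load actin onto growing filament ends, had log2 fold changes of -0.38 and 0.15 (edgeR adjusted p = 0.292 and 0.666).

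TMSB15A, another thymosin, varied more between animals than between depots. It measured 27.5, 38.3, 88.7, 208 and 210 CPM in intramuscular and 75.3, 76.3, 233, 247 and 694 CPM in subcutaneous replicates 1 to 5. The 5 animals ranked in the same order in both depots, and every animal had less in intramuscular fat. The edgeR adjusted p was 0.239 without and 0.0101 with the animal as a block, with log2 fold changes of -1.21 and -1.17. Without subcutaneous replicates 3 and 5 the unblocked log2 fold change was -0.21 (adjusted p = 0.872).

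**Figure D3:**
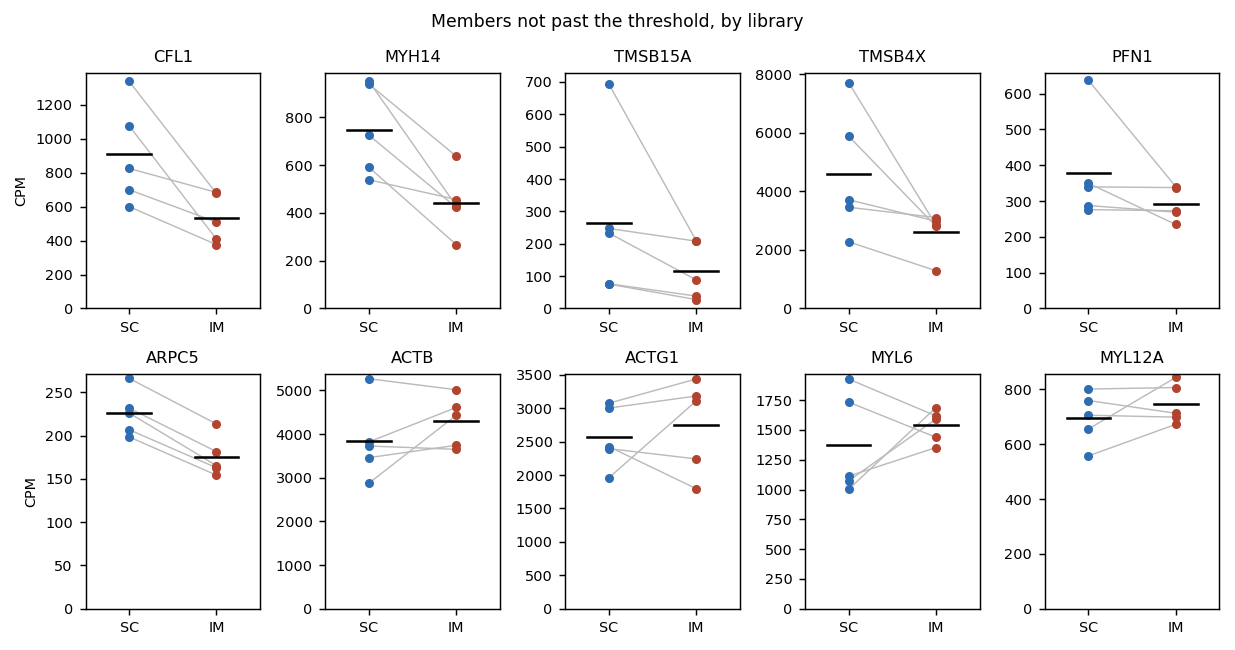
CPM per library of 10 members that did not pass the unblocked test, subcutaneous (SC) on the left and intramuscular (IM) on the right, with grey lines joining libraries of the same number and black bars for means; all axes start at 0. CFL1, MYH14, TMSB15A, TMSB4X, PFN1 and ARPC5 slope down in 5 of 5 animals, while ACTB, ACTG1, MYL6 and MYL12A go up in 3 of 5. The 10 genes were picked by hand, and none of the 5 uncalled members higher in 5 of 5 animals is drawn.

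Among the proteins that tie filaments into bundles, espin and fascin fell in intramuscular fat. ESPN builds the parallel bundles of microvilli and stereocilia (ENSBTAG00000006515, chromosome 16, 46910358 to 46943809). It measured 6.37, 13.4, 12.6, 10.0 and 11.2 CPM in intramuscular and 30.7, 40.5, 38.4, 21.9 and 32.0 CPM in subcutaneous replicates 1 to 5. All 5 intramuscular values lay below all subcutaneous ones, and the log2 fold change was -1.61 ± 0.24 (± SE, edgeR adjusted p = 0.00121).

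FSCN1 packs the filaments of filopodia and is also a marker of endothelial and dendritic cells in many tissues (ENSBTAG00000003191, chromosome 25, 38748352 to 38757857). It measured 106, 86.0, 84.3, 89.3 and 87.5 CPM in intramuscular and 176, 208, 161, 148 and 178 CPM in subcutaneous replicates 1 to 5. The depots did not overlap, and the intramuscular values other than replicate 1 lay between 84.3 and 89.3 CPM. The log2 fold change was -0.94 ± 0.14 (± SE, edgeR adjusted p = 0.00137). Both falls were called in every fit that left out 1 library, without intramuscular replicates 1 and 3 and without subcutaneous replicates 3 and 5. Of 15 endothelial markers tested 4 were lower and 0 higher, with 10 negative and 5 positive log2 fold changes (median -0.42). Over all genes tested, 5.49% were lower and 6.75% higher. Their summed levels were 2412 to 3063 CPM in intramuscular and 3032 to 5307 CPM in subcutaneous libraries. The fall was not particular to them. Of 14 stromal progenitor markers 4 were lower (median -0.73), as were 4 of 16 macrophage and leukocyte markers (median -0.75), with 0 higher in either list. Of 16 mature adipocyte markers tested 2 were lower and 0 higher (median -0.71). The part of these cell types in the FSCN1 difference was not tested.

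ACTN4, an alpha-actinin that crosslinks filaments at adhesions, measured 1354 ± 94.3 CPM in intramuscular and 1004 ± 164 CPM in subcutaneous fat (SD, n = 5). Its values did not overlap, and its log2 fold change of 0.43 ± 0.17 had an edgeR adjusted p of 0.111. FSCN2, the fascin of the retina, had too few counts to be tested: 0, 6, 22, 7 and 18 in intramuscular and 4, 2, 26, 0 and 112 in subcutaneous replicates 1 to 5.

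Calponins and transgelins bind along filaments, and the member called among them was TAGLN2. TAGLN2, the transgelin of non-muscle cells including leukocytes and endothelium (ENSBTAG00000002068, chromosome 3, 9761198 to 9769010), measured 279, 491, 509, 647 and 534 CPM in intramuscular and 897, 1045, 1840, 958 and 1046 CPM in subcutaneous replicates 1 to 5. The depots did not overlap, and subcutaneous replicate 3 was far above the others. The log2 fold change was -1.23 ± 0.26 (± SE, edgeR adjusted p = 0.0105), -1.004 without subcutaneous replicate 3, and -1.06 with an adjusted p of 0.0683 without intramuscular replicates 1 and 3. CNN2 and CNN3, calponins of non-muscle cells, had log2 fold changes of 0.10 and 0.18 (edgeR adjusted p = 0.748 and 0.654), and CNN3 was at 237 CPM in subcutaneous replicate 1 against 81.1 to 125 CPM in the other 4. TAGLN3, a transgelin of neurons, was removed by the filter on low counts. Its counts were 32, 16, 18, 25 and 8 in the intramuscular libraries in order of replicate, while the subcutaneous libraries had 0, 0, 0, 0 and 8. Reads were thus found in all intramuscular libraries and in 1 subcutaneous library. Of 12 tested markers of nerve and Schwann cells, 6 were higher and 1 lower, against 6.75% and 5.49% of all genes tested (median log2 fold change 1.30). The list's summed level was 617 to 1022 CPM in intramuscular and 740 to 1586 CPM in subcutaneous libraries. The lower gene was S100B (329 against 908 CPM on average). The part of nerve cells in the TAGLN3 counts was not tested. With no filter its adjusted p was 0.0417 by edgeR, and DESeq2 gave 0.0101. The smooth muscle forms CNN1 and TAGLN were not analysed here.

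**Figure D4:**
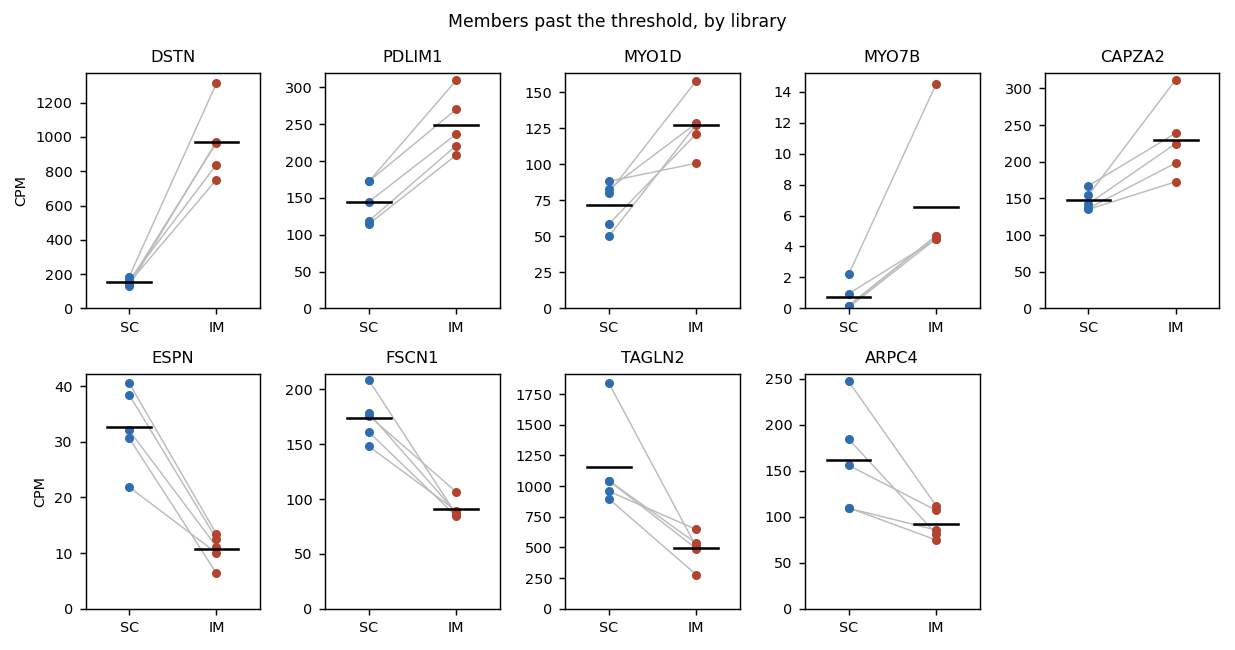
CPM per library of members past the threshold, the 5 higher ones in the top row and 4 of the 5 lower ones in the bottom row, with grey lines joining libraries of the same number and black bars for means; all axes start at 0. In every animal the 5 top genes go up from subcutaneous (SC) to intramuscular (IM) fat and the 4 bottom genes go down, and of the genes drawn only the ARPC4 values overlap between depots.

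The Arp2/3 complex, which starts filament branches, had 9 members (ACTR2, ACTR3, ARPC1A, ARPC1B, ARPC2, ARPC3, ARPC4, ARPC5 and ARPC5L). Of these 1 was lower and 0 higher, 7 had a negative log2 fold change, and the median was -0.31. ARPC4, which holds the complex together with ARPC2 (ENSBTAG00000007964, chromosome 22, 16912813 to 16923222), measured 74.9, 85.7, 81.8, 107 and 112 CPM in intramuscular and 110, 109, 184, 156 and 247 CPM in subcutaneous replicates 1 to 5. The depots met at about 110 CPM, and the log2 fold change was -0.80 ± 0.23 (± SE, edgeR adjusted p = 0.041). The call was lost in 7 of the 10 fits that left out 1 library, with adjusted p of 0.0906, 0.0857, 0.1012 and 0.0549 without intramuscular replicates 1, 2, 3 and 4 and of 0.0852, 0.0565 and 0.0749 without subcutaneous replicates 3, 4 and 5. Without subcutaneous replicates 3 and 5 together the log2 fold change was -0.44 (adjusted p = 0.178). ARPC4 overlaps TADA3, on the opposite strand, over 942 bases, and TADA3 was also lower (log2 fold change -0.57, edgeR adjusted p = 0.0379). How the counting treated strand is not stated in those sources, so reads of the overlap cannot be told apart.

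The core pair that mimics an actin dimer, ACTR2 and ACTR3, measured 173 ± 27.0 against 184 ± 18.9 CPM and 167 ± 15.7 against 145 ± 29.5 CPM (intramuscular against subcutaneous, SD, n = 5), with edgeR adjusted p of 0.748 and 0.423. ARPC2, the largest contact with the mother filament, and ARPC3 had log2 fold changes of -0.18 and -0.38, and ARPC5 and its paralog ARPC5L -0.36 and -0.31 (adjusted p from 0.120 to 0.499 over these 4). The paralogs of the ARPC1 position had opposite signs. ARPC1A lay between 179 and 249 CPM in intramuscular and between 144 and 252 CPM in subcutaneous libraries. ARPC1B, the form abundant in blood cells, measured 160 ± 24.3 against 239 ± 95.5 CPM (SD, n = 5). Neither passed alone (edgeR adjusted p = 0.539 and 0.124). Per kilobase, ARPC1B held 47.5, 59.7, 48.0, 55.1 and 58.7% of the pair in intramuscular and 62.8, 67.6, 64.5, 60.9 and 71.4% in subcutaneous replicates 1 to 5, with no overlap. Macrophage and leukocyte markers summed to between 212 and 426 CPM in intramuscular and between 206 and 1009 CPM in subcutaneous libraries. Of these markers, 4 of 16 were lower and 0 higher, against 5.49% and 6.75% of all genes tested. The value of 206 CPM, the lowest of the 10 libraries, is subcutaneous replicate 3, in which ARPC1B held 64.5% of the pair. The subcutaneous libraries other than it began at 497 CPM. The part of macrophages and leukocytes in the ARPC1B share was not tested.

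Actin-related proteins outside Arp2/3 did not pass in any of 6 cases. ACTR1A, ACTR1B and ACTR10 belong to dynactin, the partner of the motor dynein, and ACTR5, ACTR6 and ACTR8 to nuclear chromatin remodellers. Their log2 fold changes lay between -0.35 (ACTR10) and 0.15 (ACTR8). ACTR10 measured between 59.3 and 73.9 CPM in intramuscular and between 74.0 and 120 CPM in subcutaneous libraries, so that the depots were separate by a narrow margin (edgeR adjusted p = 0.160).

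At the filament ends, CAPZA2 rose in intramuscular fat and its partners did not pass. Capping protein is a pair of an alpha subunit (CAPZA1 or CAPZA2) and the beta subunit CAPZB. CAPZA2 (ENSBTAG00000004072, chromosome 4, 51491712 to 51546693) measured 312, 173, 225, 239 and 198 CPM in intramuscular and 155, 135, 143, 167 and 137 CPM in subcutaneous replicates 1 to 5. No intramuscular value fell into the subcutaneous range, and the log2 fold change was 0.64 ± 0.17 (± SE, edgeR adjusted p = 0.0305). The call was lost in 6 of the 10 fits that left out 1 library, with adjusted p of 0.0601, 0.0734 and 0.0599 without intramuscular replicates 1, 3 and 4 and of 0.0627, 0.0646 and 0.0543 without subcutaneous replicates 2, 3 and 5. CAPZA1 and CAPZB had log2 fold changes of -0.18 and -0.10 (edgeR adjusted p = 0.515 and 0.719). Per kilobase CAPZA2 held 67.5 ± 8.2% of the alpha pair in intramuscular and 54.6 ± 2.3% in subcutaneous fat (SD, n = 5), with the highest share, 81.0%, in intramuscular replicate 1. The tropomodulins TMOD2 and TMOD3, which cap the slow-growing end, had log2 fold changes of 0.21 and -0.43 (adjusted p = 0.789 and 0.138).

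PDLIM1, an adaptor that ties alpha-actinin to stress fibres, rose (ENSBTAG00000011182, chromosome 26, 16743883 to 16784813). It measured 309, 237, 270, 221 and 208 CPM in intramuscular and 173, 145, 173, 119 and 115 CPM in subcutaneous replicates 1 to 5. The depots did not overlap, and the ratio within an animal was narrow, from 1.57 to 1.86. The log2 fold change was 0.78 ± 0.18 (± SE, edgeR adjusted p = 0.0143), and 0.62 with an adjusted p of 0.108 without intramuscular replicates 1 and 3, the 2 libraries with the highest PDLIM1 values. Its paralog PDLIM4 measured 24.4 ± 8.27 against 15.8 ± 5.04 CPM (SD, n = 5, edgeR adjusted p = 0.136).

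None of the 4 conventional myosin heavy chains was called. The non-muscle forms MYH9, MYH10 and MYH14 assemble into the small bipolar filaments that contract the cell cortex and stress fibres. MYH9 measured 915, 1041, 895, 946 and 1021 CPM in intramuscular and 1830, 1872, 1140, 1268 and 823 CPM in subcutaneous replicates 1 to 5. The intramuscular values were tight and the subcutaneous values spread on both sides of them (log2 fold change -0.52, edgeR adjusted p = 0.138). Without subcutaneous replicates 3 and 5 MYH9 passed, at -0.78 with an adjusted p of 0.0318. MYH14 measured 267, 429, 423, 456 and 637 CPM in intramuscular and 591, 951, 725, 539 and 939 CPM in subcutaneous replicates 1 to 5, and was lower in 5 of 5 animals. Its log2 fold change of -0.76 ± 0.24 had an edgeR adjusted p of 0.0586, or 0.0278 with the animal as a block and 0.176 without subcutaneous replicates 3 and 5.

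MYH10, a slower non-muscle form, was the scarcest of the 3 and had the opposite sign. It measured 74.4, 74.9, 82.4, 69.1 and 69.7 CPM in intramuscular and 66.3, 54.9, 33.2, 60.1 and 9.87 CPM in subcutaneous replicates 1 to 5. The depots did not overlap, and the lowest values belong to subcutaneous replicates 5 and 3, in which long genes lay low (MYH10 has a listed length of 7111 bases). Its log2 fold change was 0.72 ± 0.37 (± SE, edgeR adjusted p = 0.197), and 0.29 with an adjusted p of 0.199 without subcutaneous replicates 3 and 5. The part of gene length in the MYH10 difference was not tested. MYH10 shares 24126 bases of its locus with NDEL1 on the opposite strand. MYH3, the embryonic skeletal form, measured 12.4, 5.51, 8.77, 4.47 and 1.82 CPM in intramuscular and between 1.57 and 4.40 CPM in subcutaneous libraries (edgeR adjusted p = 0.126). Its 2 highest values were in intramuscular replicates 1 and 3.

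None of the 4 light chain members was called. MYL6, the essential light chain, measured 1537 ± 138 against 1369 ± 428 CPM, MYL12A, a regulatory light chain, 747 ± 74.0 against 696 ± 94.8 CPM, and MYL12B, its near-identical paralog, 28.3 ± 2.16 against 30.5 ± 3.64 CPM (SD, n = 5). Their log2 fold changes were 0.17, 0.10 and -0.11 (edgeR adjusted p = 0.640, 0.706 and 0.654), and reads may have been shared within the MYL12 pair. MYLK3, the light chain kinase of heart muscle, measured 6.19 ± 1.41 against 5.89 ± 3.44 CPM (adjusted p = 0.924).

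Of the unconventional myosins, MYO1D and MYO7B rose. The class I myosins, to which MYO1D belongs, are single-headed motors that link membranes to actin. MYO1D (ENSBTAG00000015527, chromosome 19, 17330801 to 17691005) measured 128, 101, 158, 121 and 127 CPM in intramuscular and 82.8, 88.2, 80.2, 58.5 and 50.1 CPM in subcutaneous replicates 1 to 5. The depots were separate, and the log2 fold change was 0.82 ± 0.19 (± SE, edgeR adjusted p = 0.0152), or 0.69 with an adjusted p of 0.105 without intramuscular replicates 1 and 3. MYO1C, the most abundant unconventional myosin per length and a motor of glucose transporter vesicles in fat cells, measured 664, 674, 592, 930 and 1070 CPM in intramuscular and 1154, 904, 789, 759 and 1014 CPM in subcutaneous replicates 1 to 5. The depots overlapped widely (log2 fold change -0.23, edgeR adjusted p = 0.476). Of the other class I motors, MYO1E had a log2 fold change of 0.45 and MYO1F, a leukocyte form, -0.57 (adjusted p = 0.242 and 0.203). MYO1A, MYO1G and MYO1H, all at low levels, lay between -0.33 and 0.10.

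MYO7B, a myosin of the microvillus tip (ENSBTAG00000039803, chromosome 2, 4886912 to 4990264), rose at a low level. Its counts were 48, 197, 64, 69 and 66 in intramuscular and 1, 30, 3, 3 and 14 in subcutaneous replicates 1 to 5. The values were 4.49, 14.5, 4.68, 4.68 and 4.46 CPM in intramuscular and 0.0645, 2.20, 0.186, 0.176 and 0.953 CPM in subcutaneous replicates 1 to 5, so that animal 2 had the highest level in both depots. Its log2 fold change was 3.21 ± 0.78 (± SE, edgeR adjusted p = 0.0202), and was 4.24 without subcutaneous replicate 2 and 2.68 without intramuscular replicate 2. The adjusted p was 0.0595 without intramuscular replicate 2, 0.0682 without intramuscular replicates 1 and 3 and 0.0768 without subcutaneous replicates 3 and 5. MYO7B overlaps the focal adhesion gene LIMS2 on the opposite strand over 516 bases, and LIMS2 rose as well (283 ± 52.0 against 150 ± 22.1 CPM, SD, n = 5). Reads of that overlap cannot be told apart.

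Further unconventional myosins did not pass. MYO19, a motor of mitochondria, measured 35.9 ± 6.02 against 55.8 ± 19.3 CPM (SD, n = 5, edgeR adjusted p = 0.0751) and was lower in 5 of 5 animals. The filopodial motor MYO10, the endocytic motor MYO6 and MYO9B had log2 fold changes of 0.17, 0.38 and 0.12. The class V cargo carriers MYO5A, MYO5B and MYO5C had -0.15, -1.10 and 0.07, with MYO5B at 2.78 ± 1.73 against 5.96 ± 3.06 CPM (adjusted p = 0.152). MYO7A and MYO9A had 0.49 and 0.85 at low levels (adjusted p = 0.610 and 0.210).

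Partners of the actin system were read from 5 lists, which were chosen with earlier results of these data known. Over all genes tested 6.75% were called higher and 5.49% lower (845 and 688 genes), with a median log2 fold change of -0.04, and each list's counts are to be read against these shares.

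Focal adhesion genes, which anchor stress fibres to the matrix, had 7 of 23 higher and 0 lower, with a median log2 fold change of 0.30. VCL (vinculin) measured 732 ± 112 against 351 ± 73.6 CPM, ZYX (zyxin) 694 ± 109 against 330 ± 80.2 CPM, and LIMS2 is given above (edgeR adjusted p = 0.0051, 0.00584 and 0.00545). The others were FBLIM1, TES, LPP and ITGB1, at log2 fold changes of 0.67 to 1.59. Talin (TLN1) measured 2167 ± 262 against 2156 ± 461 CPM, and did not pass. Leaving out 1 library at a time, ITGB1 was called in 2 and LPP in 7 of 10 fits (largest adjusted p 0.109 and 0.0621). Without intramuscular replicates 1 and 3, 3 of the list's genes were called. The list of regulators around the actin-responsive factor SRF had 3 of 11 higher and 0 lower (median 0.64): VCL and ZYX again, and TGFB1I1 (142 ± 23.8 against 90.5 ± 15.7 CPM), which was called in 7 of the 10 fits without 1 library. SRF and its coactivator MYOCD were not analysed here, and MRTFA and MRTFB had log2 fold changes of 0.23 and 0.86 (adjusted p = 0.443 and 0.302).

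Among formins and Ena/VASP proteins 3 of 15 were higher and 1 lower (median 0.43). COBL, a nucleator of unbranched filaments, measured 227, 60.4, 91.1, 27.0 and 29.6 CPM in intramuscular replicates 1 to 5 and at most 1.36 CPM in subcutaneous libraries, and it followed the order of intramuscular replicates 1, 3 and 2 in striated muscle transcripts. The formins DAAM2 (64.8 ± 13.4 against 29.2 ± 12.5 CPM) and FHOD1 (225 ± 82.2 against 124 ± 36.9 CPM) also rose, and EVL, an elongation factor of leukocytes and endothelium, fell (166 ± 10.5 against 268 ± 65.9 CPM). With 1 library left out, DAAM2 was called in 8, EVL in 6 and FHOD1 in 1 of 10 fits (largest adjusted p 0.0630, 0.0728 and 0.104). Of 18 severing and turnover partners, 2 were higher and 0 lower (median -0.03). WDR1, which works together with destrin and cofilin in taking filaments apart, measured 434 ± 56.6 against 294 ± 30.2 CPM (edgeR adjusted p = 0.0319), with an adjusted p of 0.0539 with the animal as a block and 0.173 without intramuscular replicates 1 and 3, and it was called in 2 of the 10 fits without 1 library. CORO6, a coronin of muscle, measured 452, 125, 204, 66.4 and 90.3 CPM in intramuscular and between 4.76 and 25.2 CPM in subcutaneous libraries. Among 25 promoters of branched nucleation 2 were higher and 0 lower (median -0.08), a share near that of all genes: WASF1 and WASF3, with edgeR adjusted p of 0.0420 for each. With 1 library left out, WASF1 was called in 1 and WASF3 in 3 of 10 fits (largest adjusted p 0.103 and 0.108). The part of muscle fibre RNA in the COBL and CORO6 differences was not tested.

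**Figure D5:**
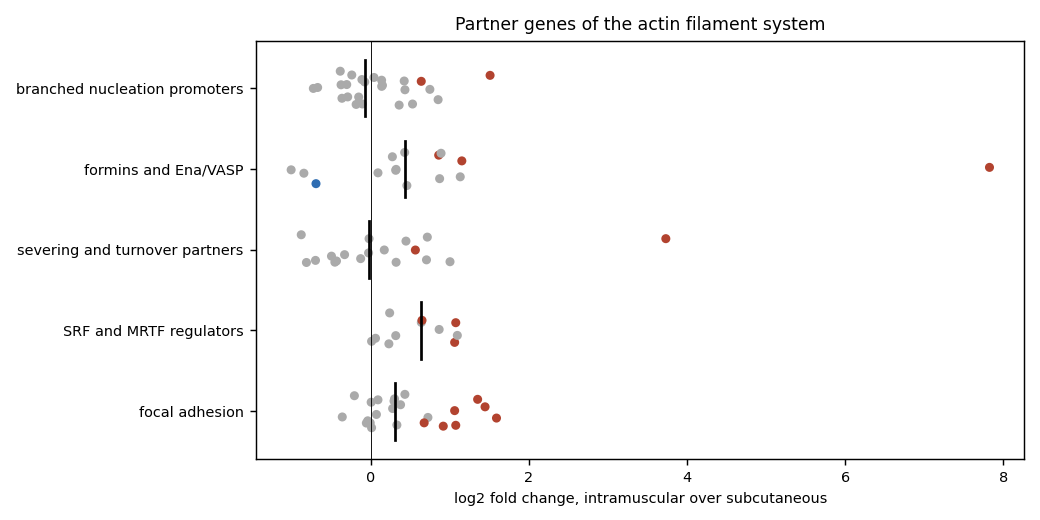
Log2 fold change (intramuscular over subcutaneous fat) of each tested gene in the 5 partner lists, with red for genes called higher, blue for genes called lower, grey for the rest and black bars for list medians; vertical scatter within a list carries no meaning. Called genes lie mostly on the right, 17 red against 1 blue point with VCL and ZYX in 2 lists each, where 845 of all genes were called higher and 688 lower, and COBL at 7.83 is the farthest.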

How the data were processed

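RNA was sequenced from intramuscular and subcutaneous fat of 5 heifers, 10 libraries in all. Per the labels' protocols, second strands were marked with dUTP and libraries sequenced in pairs. The submitters' processing notes name DESeq2 1.42.0, featureCounts 2.0.2, the aligner STAR 2.7.11a and the trimmer Trimmomatic 0.39. Neither build nor strand setting is given in the sources used here. The authors deposited raw counts per gene and library, a log2 fold change and an adjusted p-value. CPM and CPM per kilobase of the deposited gene length were computed here.

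Depots were compared with the quasi-likelihood fit of edgeR 4.0.16 (R 4.3.3, two-sided, TMM scaling, filterByExpr, no block) over 12521 genes, with 153 removed. Alternatives used DESeq2 1.42.0, limma 3.58.1, other filters and scaling, a replicate block and left-out libraries. The step was tested on simulated counts. Standard errors are the log2 fold change over the root of F.

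The 67 members and all lists were chosen with earlier results of these data known. By rule, the text names members past the threshold, the most abundant and smallest-p member of each role, the whole actin, tropomyosin, Arp2/3, cofilin and calponin families, and up to 3 called genes of smallest p per list and direction. For the marker lists this was not carried through, and most of their called genes are not named. Members named beyond that rule, and TLN1, MRTFA, MRTFB, PDK4, FBLIM1, TES, LPP and ITGB1, were named after their values were seen. A called member and a partner list are not reported here. Same-numbered libraries were taken as pairs because the design text gives 5 heifers for both depots. Their deviations from depot means correlated across genes at 0.10, 0.18, 0.18, 0.16 and 0.24. Without a block, p-values measure the spread between libraries within a depot. With the animal as a block, they measure how the depot difference varies between these animals.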

Additional observations from a re-analysis of the deposited data

Results flagged for a closer look

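Within depots of 5 libraries, 10 of 88 sets of values (named members and paralog shares) had 1 library set far from the other 4 by Dixon's gap over range (critical value 0.71). Chance gives about 1 in 20 for independent normal values, which these are not, so no excess can be read from the count. In intramuscular fat, replicate 1 was low for TMSB4X (1291 CPM against 2812 to 3109), high for FSCN1 (106 CPM against 84.3 to 89.3) and high for the ARPC5L share of the ARPC5 pair (37.3% against 27.2 to 28.0). Replicate 2 was high for MYO7B (14.5 CPM against 4.46 to 4.68) and replicate 3 low for ARPC2 (182 CPM against 206 to 215). In subcutaneous fat, replicate 1 was high for CNN3 (237 CPM against 81.1 to 125), replicate 3 for TAGLN2 (1840 CPM against 897 to 1046) and ACTR10 (120 CPM against 74.0 to 81.9), and replicate 4 for ACTR3 (197 CPM against 127 to 144). Subcutaneous replicate 5 was the single subcutaneous library with TAGLN3 counts (0.544 CPM against 0), where the gap fills the whole range by construction.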

How the results depend on the processing

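Higher members numbered 5 and lower members 5. With 1 library left out these counts ran from 4 to 6 and from 4 to 7. With the replicate block 8 were lower, and without intramuscular replicates 1 and 3, 1 was higher and 3 lower. The block added CFL1, MYH14 and TMSB15A and changed no other member's call. RLE scaling, limma voom and a minimum mean of 1 CPM gave the same 10 genes, no filter added TAGLN3, and DESeq2 added ACTN4, CFL1, MYH14 and TAGLN3. The alternative without subcutaneous replicates 3 and 5 was chosen after the data were seen. It lost ARPC4, CAPZA2 and MYO7B and added MYH9 and TAGLN3. In the partner lists DESeq2 called 5 SRF and MRTF genes higher (3 by edgeR).

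With libraries left out, the replicate block or DESeq2, 17 members reversed direction at least once, 0 of them called. MYO7A went from 0.49 to -0.19 (log2) without intramuscular replicate 5. The ACTR2 log2 fold change ran from -0.14 to 0.0056 with 1 library left out and was 0.047 without intramuscular replicates 1 and 3. Without subcutaneous replicates 3 and 5 CNN3 was at -0.075 and ARPC2 at 0.013 (log2). Differences in paralog shares are in percentage points, intramuscular minus subcutaneous, and those of MYH9 and CNN3, at 3.20 and 3.04 over all libraries, reversed to a like size. Without intramuscular replicates 1 and 3 ACTG1 was at 0.547, ARPC5L at -0.599 and PDLIM1 at -0.480. Without subcutaneous replicates 3 and 5 MYH9 was at -3.30, MYH14 at 0.885 and CNN3 at -3.38. With 1 library left out, MYH9 ran from -0.959 to 6.10, ARPC5L from -0.575 to 2.89 (-0.0934 and -0.266 without subcutaneous replicates 1 and 2), TMSB10 from -0.288 to 5.63 and CNN3 from -1.49 to 7.31. The cause was not tested.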
